A study of Mus musculus with 12 samples.

Results

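The genes described here lie around Eif2s1, the mouse gene for eIF2α, on chromosome 12. The 8 are Gpr135, L3hypdh, Dhrs7, Sgpp1, Riox1, Vrtn, Vash1 and Snw1. They were chosen from RNA-seq counts as the genes whose transcript start was within 10 Mb of that of Eif2s1 and whose level differed, in LIF/2i medium, between knock-in and wild-type mouse embryonic stem cells (adjusted p under 0.05). They are 8 of the 22416 genes in the count table, of 13239 with enough counts to be tested, and of 162 tested genes in that window, Eif2s1 included. All 8 passed the low-count filter. Because the LIF/2i libraries chose them, their differences in LIF/2i are given as a description, and tests are given for the difference in LIF. The LIF libraries gave none of the LIF/2i levels, but the fit behind the choice estimated the spread of each gene over all groups, LIF included. With only the LIF/2i groups fitted, 3 of the 8 (Dhrs7, Sgpp1 and Vrtn) were past the threshold, so the other 5 were chosen with the LIF libraries in the estimate of spread.

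The knock-in (KI) cells carried eIF2αA/A, in which alanine replaces the serine that stress kinases phosphorylate, on both copies of the gene, and the wild-type (WT) cells carried eIF2α+/+. For 6 days each genotype grew without serum, either in leukaemia inhibitory factor (LIF) together with the MEK inhibitor PD0325901 and the GSK3 inhibitor CHIR99021 (LIF/2i), or in LIF alone. The 4 groups were thus KI in LIF/2i, WT in LIF/2i, KI in LIF and WT in LIF, with 3 libraries each. For neither genotype do the labels give the strain, how the allele was made or how many lines or clones were used.

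eIF2 brings the initiator tRNA to the ribosome, and phosphorylation of its α subunit lowers general protein synthesis while favouring translation of a few messages such as Atf4. Genes on the same chromosome tend to be inherited together with an edited locus when they lie close to it. A line that carries an edited allele can therefore also carry other sequence differences nearby. Counts per gene hold no sequence of the cells, so an effect of the alanine allele and an effect of linked sequence, or of any other difference between the lines, cannot be told apart here.

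The serine codon that the KI allele changes is shown because it marks the edited site around which the 8 genes lie. It is codon 52 of Eif2s1 counted with the start methionine, or serine 51 in the usual numbering. It lies in exon 2 of 8 at chr12:78866680-78866682 (GRCm38, plus strand). The reference sequence at chr12:78866659-78866703, from GENCODE M21 transcripts, reads as follows with that codon in capitals.
Eif2s1: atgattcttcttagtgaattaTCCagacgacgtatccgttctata

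On GRCm38 chromosome 12, with starts measured from the Eif2s1 transcript start at 78861819, 4 of the 8 genes lay below Eif2s1 and 4 above. Below it were Gpr135 (72067976 to 72071125, minus strand, 6.79 Mb away, 1 exon), L3hypdh (72073428 to 72085439, minus strand, 6.78 Mb, 5 exons), Dhrs7 (72650353 to 72664754, minus strand, 6.20 Mb, 7 exons) and Sgpp1 (75714249 to 75735729, minus strand, 3.13 Mb, 3 exons). Above it were Riox1 (83950608 to 83952951, plus strand, 5.09 Mb, 1 exon), Vrtn (84642555 to 84651455, plus strand, 5.78 Mb, 3 exons), Vash1 (86678700 to 86692091, plus strand, 7.82 Mb, 7 exons) and Snw1 (87449910 to 87472274, minus strand, 8.61 Mb, 14 exons). The 4 below Eif2s1 were all lower in KI than in WT cells in LIF/2i, and the 4 above were all higher. Since a call in LIF/2i chose the 8, only these directions were free. Over all tested genes, 165 were called lower (1.25%) and 129 higher (0.974%) in LIF/2i. Of all tested genes in the window, 37 of 71 below Eif2s1 and 60 of 90 above it had a log2 fold change above 0 there. The split of directions by side was not tested. Gpr135 and L3hypdh are next to each other among tested genes, with starts 14.3 kb apart, so they are not 2 separate positions in the window.

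The promoters of Dhrs7, Sgpp1 and Vrtn are shown because these genes differed most between the genotypes in LIF/2i. Each is the 250 bases before the RefSeq gene start (GRCm38.p6), 5′ to 3′ on the strand of the gene, with CG dinucleotides in capitals. Dhrs7 is at chr12:72664829-72665078 (minus strand), Sgpp1 at chr12:75735730-75735979 (minus strand) and Vrtn at chr12:84642305-84642554 (plus strand). The RefSeq start of Dhrs7 is 74 bases from the start of the transcript counted here and was not matched to it. For Sgpp1 and Vrtn the 2 starts are the same.
Dhrs7: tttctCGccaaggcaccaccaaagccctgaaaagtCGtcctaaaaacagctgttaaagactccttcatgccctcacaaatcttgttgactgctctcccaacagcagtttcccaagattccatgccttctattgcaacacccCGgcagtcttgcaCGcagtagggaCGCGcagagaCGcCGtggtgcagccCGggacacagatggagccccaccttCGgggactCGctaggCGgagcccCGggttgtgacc
Sgpp1: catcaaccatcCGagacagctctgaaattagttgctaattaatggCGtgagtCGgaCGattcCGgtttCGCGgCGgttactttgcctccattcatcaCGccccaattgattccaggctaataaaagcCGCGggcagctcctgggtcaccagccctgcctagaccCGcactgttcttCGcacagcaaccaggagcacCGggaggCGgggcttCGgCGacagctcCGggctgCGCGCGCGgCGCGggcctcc
Vrtn: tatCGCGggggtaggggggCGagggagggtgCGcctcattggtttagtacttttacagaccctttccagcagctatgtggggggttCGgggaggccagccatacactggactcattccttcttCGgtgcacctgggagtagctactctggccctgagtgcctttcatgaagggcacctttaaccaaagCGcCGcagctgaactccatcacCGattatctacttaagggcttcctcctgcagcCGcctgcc
These windows held 13 CG dinucleotides for Dhrs7, 24 for Sgpp1 and 10 for Vrtn. The median over 32851 RefSeq promoters of the same length was 6, with quartiles of 2 and 16. A RefSeq promoter was found for 7 of the 8 genes, all but Snw1. The letters TGATGNAA (the C/EBP-ATF response element), CTTTGAT (TCF/LEF) and CACGTG (E-box) were searched on both strands. None of the 7 windows held any of them, against 3.45%, 3.2% and 6.02% of all promoters in that order. That says only that these letters are not in these windows. The RefSeq start used was 126 bases from the start of the counted transcript for L3hypdh and 24 bases for Gpr135. Vrtn has 3 RefSeq entries, of which only the nearest to that start was searched.

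Dhrs7 encodes a short-chain dehydrogenase/reductase of the endoplasmic reticulum, which in human cells reduces carbonyl groups of steroids and retinoids. In LIF/2i its level was 3.86, 4.11 and 3.02 CPM (counts scaled to a common library size) in KI replicates 1 to 3, against 28.0, 27.6 and 34.97 CPM in WT replicates 1 to 3. Every KI library was far under every WT library. The fitted log2 fold change was -3.02, an 8.10-fold lower level. In RNA from whole cultures, fewer cells that express a gene and less RNA per cell cannot be told apart. In LIF the KI libraries had 12.5, 10.4 and 7.62 CPM, against 37.5 CPM in the mean of WT replicates 1 and 3 and 33.7 CPM in WT replicate 2. WT LIF replicates 1 and 3 agree within sampling noise and count as 1 sample throughout, so WT in LIF has n = 2.

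Dhrs7 was lower in KI cells also in LIF. Its log2 fold change was -1.79 ± 0.25 (SE; edgeR's quasi-likelihood test, adjusted p = 0.0221 over 13239 genes), with all 3 KI libraries under both WT samples. Sgpp1 was the other gene of the 8 that passed this test. The count of 2 of 8 compares with 0.144% of all tested genes called in LIF (19 genes), and 0.128% called lower. Leaving out KI LIF replicate 2 left 1 gene called over the whole table, as did leaving out replicate 3 of that group, and leaving out WT LIF replicate 2 left 7.

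Sgpp1 encodes the phosphatase of the endoplasmic reticulum that turns sphingosine-1-phosphate, a lipid messenger, back into sphingosine. Sgpp1 in LIF/2i stood at 11.2, 9.09 and 7.39 CPM in KI libraries, against 56.9, 58.0 and 64.2 CPM in WT libraries. In LIF it stood at 10.4, 9.39 and 8.46 CPM in KI libraries, against 26.2 CPM (replicates 1 and 3) and 25.9 CPM (replicate 2) in WT. The 6 KI libraries thus kept 1 narrow range in both media, and all of them were under all WT samples. The log2 fold change was -2.68 in LIF/2i and -1.46 ± 0.22 (SE, adjusted p = 0.0264 by edgeR) in LIF.

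The calls of Dhrs7 and Sgpp1 in LIF depended on single libraries, while their fold changes did not. Without KI LIF replicate 2 both had an adjusted p of 0.151 by edgeR. Without KI LIF replicate 3 the values were 0.128 for Dhrs7 and 0.170 for Sgpp1. Without WT LIF replicate 2 they were 0.115 and 0.224, and without the agreeing WT pair 0.167 for both; a lone WT sample is then assumed to vary like the other groups. Over all 17 alternatives the Dhrs7 log2 fold change in LIF ran from -1.95 to -1.64 and that of Sgpp1 from -1.54 to -1.40. Sgpp1 was also not called by limma-voom (adjusted p = 0.0703) or by edgeR on the LIF groups alone (adjusted p = 0.0528).

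L3hypdh encodes the dehydratase of trans-3-hydroxy-L-proline, an amino acid released from collagen, as described in human cells. In LIF/2i its level was 2.82, 3.98 and 1.68 CPM in KI libraries, against 16.9, 8.80 and 13.4 CPM in WT libraries, a log2 fold change of -2.17. In LIF it was 3.12, 3.13 and 2.96 CPM in KI libraries, against 8.22 CPM (replicates 1 and 3) and 6.97 CPM (replicate 2) in WT. KI and WT did not overlap in either medium. The difference in LIF was -1.30 ± 0.42 on the log2 scale (SE) and did not pass the edgeR test (adjusted p = 0.269), with 7 to 15 counts per KI library.

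Gpr135 encodes an orphan G protein-coupled receptor, one with no settled ligand. KI libraries in LIF/2i had 2.82, 1.74 and 0.839 CPM, against 13.6, 8.40 and 4.87 CPM in the WT libraries, a log2 fold change of -2.28. In LIF it had 5.54, 4.59 and 2.54 CPM in KI libraries, against 2.84 CPM (replicates 1 and 3) and 2.43 CPM (replicate 2) in WT, so that the groups overlapped and the KI mean was the larger. The log2 fold change in LIF was 0.70 ± 0.57 (SE, edgeR adjusted p = 0.725). Counts were low, with 5 to 27 per KI library over both media. Gpr135 was the only gene of the 8 with opposite signs in the 2 media.

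**Figure D1:**
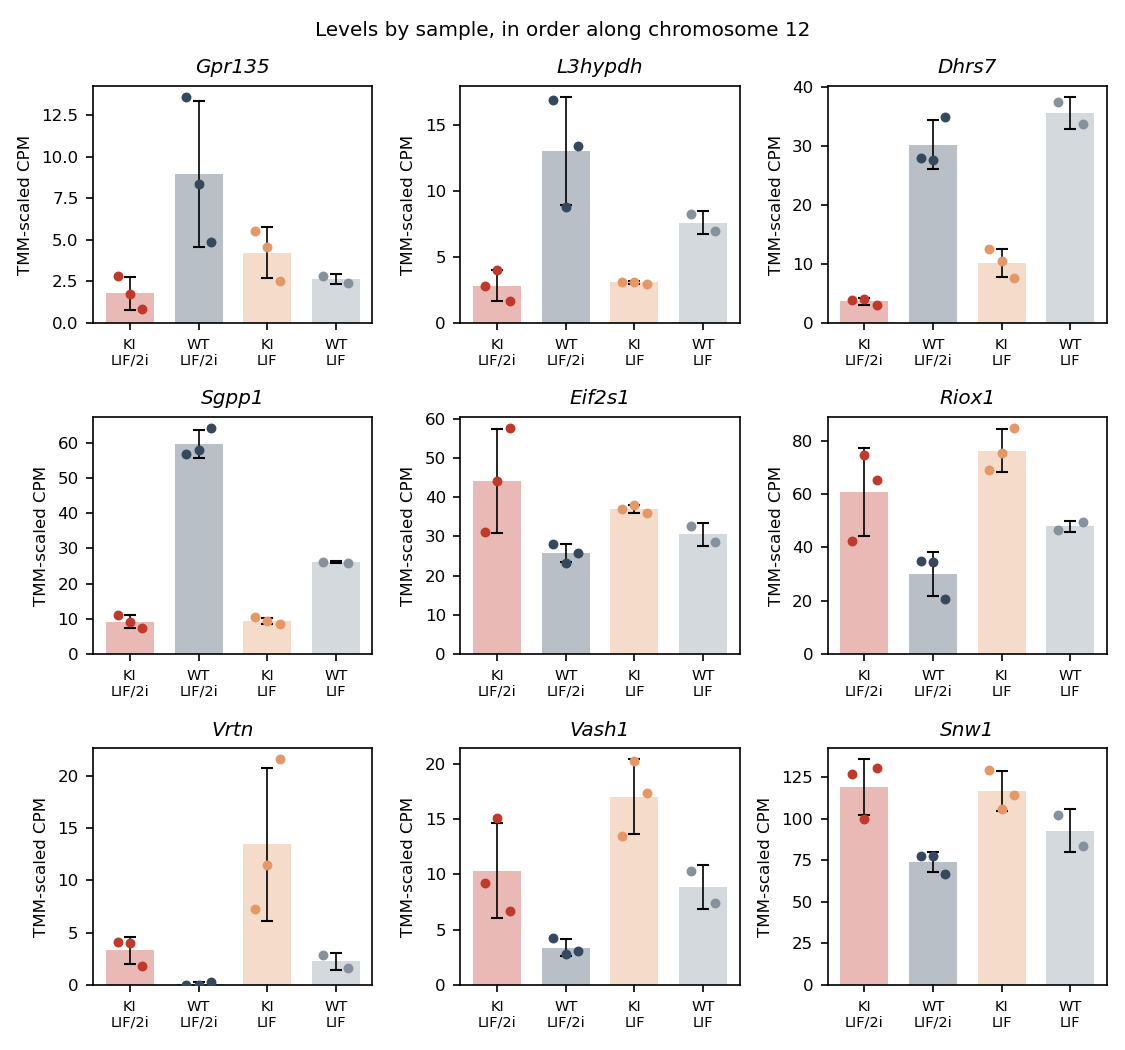
Level of the 8 genes and of Eif2s1 in each sample (TMM-scaled CPM, linear axis from 0), in order along chromosome 12. Bars are group means, error bars SD and points samples (KI in LIF/2i, WT in LIF/2i, KI in LIF, n = 3 each; WT in LIF, n = 2). Sgpp1 lies between 7.39 and 11.2 CPM in all 6 KI libraries and at 25.9 CPM or more in every WT sample.

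Vrtn encodes vertnin, a DNA-binding protein known from pigs, where variants of the gene go with the number of vertebrae. Vrtn in LIF/2i had 39, 32 and 11 counts in KI libraries, against 0, 0 and 1 counts in WT libraries. Summed over libraries that is 82 of 24072057 counts in KI and 1 of 17674126 in WT, a ratio of 60.2 with an exact 95% interval of 10.5 to 2407. The interval covers counting error only and, since these counts helped choose Vrtn, is a description and not a test. The fitted log2 fold change of 5.36 depends on the prior count. In LIF, Vrtn had 7.27, 11.5 and 21.6 CPM in KI libraries, against 2.84 CPM (replicates 1 and 3) and 1.67 CPM (replicate 2) in WT.

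Every KI library in LIF was above both WT samples for Vrtn. The difference, 2.55 ± 0.62 on the log2 scale (SE), did not pass the edgeR test (adjusted p = 0.152). DESeq2 called it (adjusted p = 0.00643), as did edgeR with all 12 libraries counted separately (adjusted p = 0.0390) and without KI replicate 1 in both media (adjusted p = 0.0273). Over the 17 alternatives its adjusted p ran from 0.00643 to 0.697.

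Vash1 encodes vasohibin 1, which with its partner Svbp removes the last tyrosine of α-tubulin. Its level in LIF/2i was 9.19, 15.1 and 6.71 CPM in KI libraries, against 4.27, 2.80 and 3.04 CPM in WT libraries, a log2 fold change of 1.61. In LIF it had 13.5, 20.2 and 17.3 CPM in KI libraries, against 10.3 CPM (replicates 1 and 3) and 7.43 CPM (replicate 2) in WT. KI was above WT without overlap in both media, and the LIF difference of 0.95 ± 0.38 (log2, SE) did not pass the edgeR test (adjusted p = 0.391).

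Snw1, a component of the spliceosome that also acts as a transcription coregulator, had the smallest difference of the 8. Its level in LIF/2i was 126.9, 99.98 and 130.6 CPM in KI libraries, against 77.6, 77.7 and 66.9 CPM in WT libraries, a log2 fold change of 0.68. In LIF it had 129.5, 105.8 and 114.7 CPM in KI libraries, against 102.1 CPM (replicates 1 and 3) and 83.7 CPM (replicate 2) in WT. The gap between KI and WT in LIF was small, and the log2 difference of 0.33 ± 0.17 (SE) did not pass the edgeR test (adjusted p = 0.531).

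Riox1 encodes a JmjC oxygenase that hydroxylates a histidine of the ribosomal protein Rpl8. In LIF/2i it had 42.4, 74.5 and 65.3 CPM in KI libraries, against 34.9, 34.5 and 20.7 CPM in WT libraries, a log2 fold change of 1.00. In LIF it had 68.9, 75.3 and 84.6 CPM in KI libraries, against 46.5 CPM (replicates 1 and 3) and 49.4 CPM (replicate 2) in WT. KI was above WT without overlap in both media, and the LIF difference of 0.67 ± 0.26 (log2, SE) did not pass the edgeR test (adjusted p = 0.382).

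Overlapping genes limit some of these counts. The antisense gene Gm26571 covers 36.7% of the coding bases of Riox1, and Slirp, on the other strand, covers 22.4% of those of Snw1. Whether counting used strand is not stated, so reads from those bases cannot be assigned to 1 gene. Slirp itself had a log2 fold change of 0.50 in LIF/2i and 0.31 in LIF, neither past the edgeR threshold (adjusted p = 0.349 and 0.800). The transcript counted for Dhrs7 is annotated with an incomplete 5′ end.

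Eif2s1 was measured alongside the 8 genes. In LIF/2i it had 31.0, 44.1 and 57.6 CPM in KI libraries, against 28.0, 23.3 and 25.8 CPM in WT libraries. In LIF it had 37.0, 38.0 and 36.0 CPM in KI libraries, against 32.6 CPM (replicates 1 and 3) and 28.5 CPM (replicate 2) in WT. It was just outside the threshold in LIF/2i. Counts per gene do not show the codon change and give no check of the genotype.

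The edge of the choice ran through several genes with like values. Just inside it were Riox1 (adjusted p = 0.0497 by edgeR in LIF/2i), Vash1 (0.0408) and Snw1 (0.0407). Just outside were Snapc1, 4.90 Mb below Eif2s1 (log2 fold change -0.96, edgeR adjusted p = 0.0529), Hspa2, 2.46 Mb below (-0.87, 0.0611), Eif2s1 itself (0.78, 0.0790) and Syne2, 3.04 Mb below (-1.10, 0.0811). Without KI LIF/2i replicate 1, Hspa2 and Eif2s1 were called (edgeR adjusted p = 0.0266 and 0.0134), and DESeq2 called all 4 of these genes, Eif2s1 with an adjusted p of 0.0290. Which genes belong to the set therefore depends on the threshold and on single libraries.

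Per kilobase of coding sequence, a scale on which genes can be set beside each other, Snw1 led in KI cells in LIF/2i with 74.1 ± 10.4 CPM per kb (SD, n = 3). Riox1 followed with 33.6 ± 9.13, Vash1 with 9.18 ± 3.81, Sgpp1 with 7.14 ± 1.47, Dhrs7 with 3.38 ± 0.526, L3hypdh with 2.66 ± 1.09, Vrtn with 1.49 ± 0.568 and Gpr135 with 1.31 ± 0.723 CPM per kb. Of these, Vash1 and Sgpp1 overlapped, as did Dhrs7 with L3hypdh, L3hypdh with Vrtn and Vrtn with Gpr135. In WT cells in LIF/2i Sgpp1 and Snw1 shared the top with 46.3 ± 3.05 and 46.1 ± 3.85 CPM per kb and overlapped. Below them in WT came Dhrs7 with 27.8 ± 3.83, Riox1 with 16.6 ± 4.48, L3hypdh with 12.3 ± 3.83, Gpr135 with 6.53 ± 3.20, Vash1 with 2.99 ± 0.699 and Vrtn with 0.0457 ± 0.0791 CPM per kb. Riox1 overlapped L3hypdh there, L3hypdh overlapped Gpr135, and Gpr135 overlapped Vash1.

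In LIF, Snw1 had the highest level per kilobase in both genotypes. In KI cells the order ran Snw1 (72.5 ± 7.44 CPM per kb, SD, n = 3), Riox1 (42.2 ± 4.37), Vash1 (15.1 ± 3.00), Dhrs7 (9.37 ± 2.24), Sgpp1 (7.30 ± 0.746), Vrtn (6.05 ± 3.31), Gpr135 (3.08 ± 1.12) and L3hypdh (2.89 ± 0.0876). From Dhrs7 down, each gene overlapped the next. In WT cells in LIF it ran Snw1 (57.8 ± 8.10 CPM per kb, SD, n = 2), Dhrs7 (32.8 ± 2.48), Riox1 (26.5 ± 1.16), Sgpp1 (20.2 ± 0.170), Vash1 (7.87 ± 1.79), L3hypdh (7.15 ± 0.829), Gpr135 (1.92 ± 0.216) and Vrtn (1.02 ± 0.375), and there Vash1 and L3hypdh overlapped.

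Set against the rest of the genome, the window around Eif2s1 held 8 called genes of 162 tested in LIF/2i (4.94%), against 2.22% of all tested genes called in that comparison. This count is what the choice fixed, so nothing is read from it. By distance, 1 of 61 tested genes was called within 5 Mb of Eif2s1 and 7 of 101 at 5 to 10 Mb. Farther out on chromosome 12, 0 of 24 were called at 10 to 20 Mb and 5 of 263 beyond 20 Mb, and on other chromosomes 277 of 12641 were called. The closest called gene, Sgpp1, started 3.13 Mb from Eif2s1. The count of 294 called genes in LIF/2i ranged from 64 to 1001 when 1 library was left out, the lowest without WT replicate 1 and the highest without KI replicate 1.

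In LIF, 2 of the 162 genes in the window were called (1.23%), against 0.144% of all tested genes. They were Sgpp1, within 5 Mb, and Dhrs7, at 5 to 10 Mb. Of the 154 other genes in the window edgeR called 0 (14 at an unadjusted p under 0.05) and DESeq2 2. Of the 287 genes farther out on chromosome 12 edgeR called 0 (23 at an unadjusted p under 0.05), DESeq2 3 and limma-voom 0. On other chromosomes edgeR called 17 of 12641. Over all tested genes 10.7% had an unadjusted p under 0.05 in LIF. With so few calls the difference between the window and the genome was not tested.

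**Figure D2:**
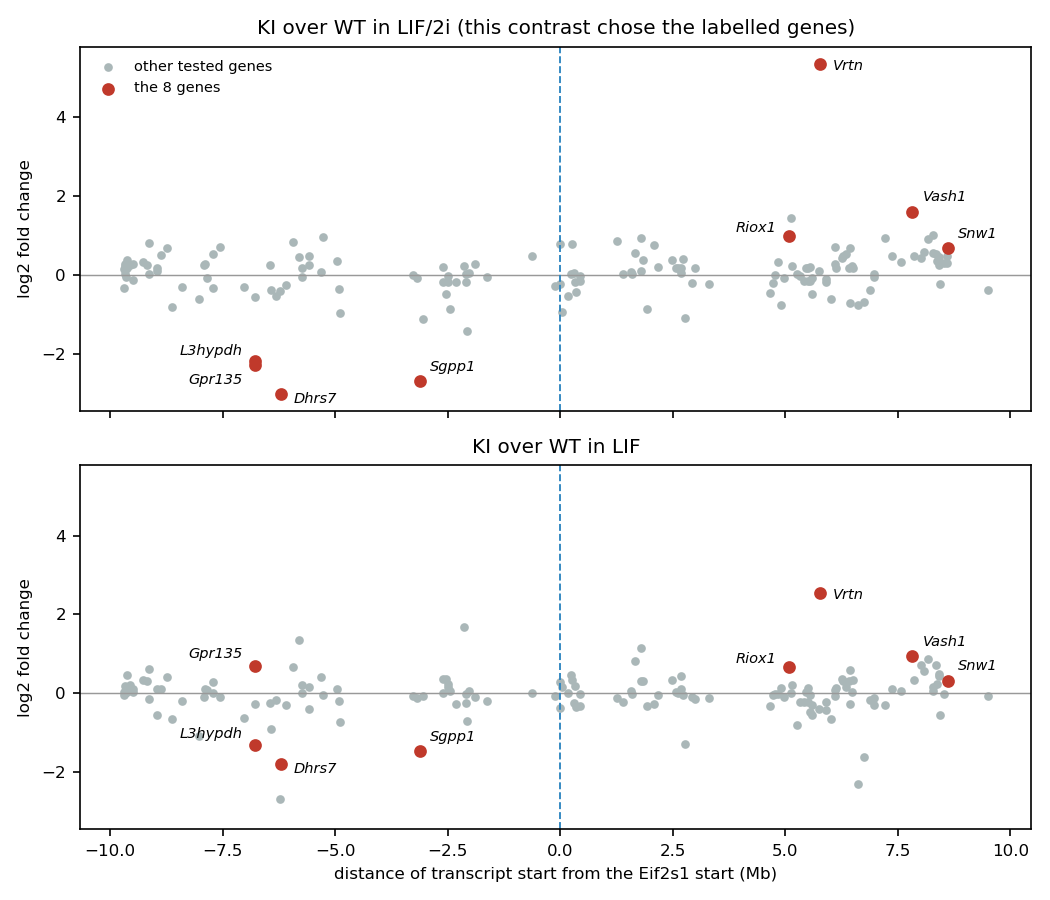
Log2 fold change of KI over WT for tested genes against the distance of their transcript start from that of Eif2s1 (Mb, dashed line at 0), in LIF/2i above and in LIF below. Red points are the 8 genes and grey points the others; in LIF/2i the 4 red points left of Eif2s1 are below 0 and the 4 right of it above 0, and in LIF only Gpr135 changes side.

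**Figure D3:**
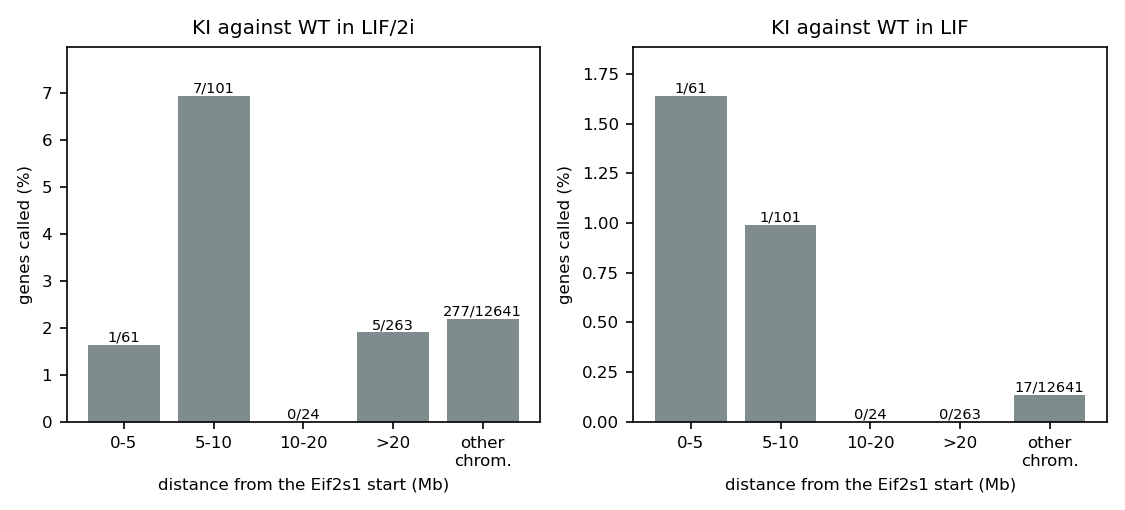
Percent of tested genes called between KI and WT (edgeR, adjusted p under 0.05) by distance from the Eif2s1 start, in LIF/2i at left and LIF at right, with the counts printed above the bars. The axes differ in scale, and 149 tested genes with no position are left out. The LIF/2i bars include the comparison that chose the genes, with 7 of 101 called at 5 to 10 Mb.

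The 14 nearest tested neighbours of the 8 genes that are not themselves among them gave 0 calls in either medium by edgeR, with 4 at an unadjusted p under 0.05 in LIF/2i and 2 in LIF. The 0 in LIF/2i was fixed by the choice, since every gene of the window called there is among the 8. Nothing is read from it. In LIF 0.144% of all tested genes were called, so 0 of 14 says little there either. At an unadjusted p under 0.05 in LIF were 10.7% of all tested genes, and the share in LIF/2i was not counted. DESeq2 called Jkamp and Syne2 in LIF/2i and 0 in LIF, and limma-voom called 0 in both. Their median absolute log2 fold change was 0.34 in LIF/2i and 0.24 in LIF. Over all tested genes it was 0.30 and 0.25, and over the 8 genes, whose LIF/2i values were chosen for size, 2.23 and 1.12. The neighbours in LIF/2i ranged from -1.10 (Syne2, next to Sgpp1) to 1.45 (Acot2, next to Riox1, at 1.64 ± 0.711 CPM in KI and 0.623 ± 0.407 CPM in WT, SD, n = 3 each).

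L3hypdh and Jkamp, whose transcript starts are 0.418 kb apart, give the closest pair. Jkamp had 46.0 ± 8.56 CPM in KI and 67.1 ± 3.54 CPM in WT in LIF/2i (SD, n = 3 each). Its log2 fold change was -0.54 there and -0.28 in LIF (edgeR adjusted p = 0.110 and 0.668). L3hypdh differed by -2.17 and -1.30. On the far side of Dhrs7, Ppm1a, a protein phosphatase, had log2 fold changes of -0.25 in LIF/2i and -0.30 in LIF (edgeR adjusted p = 0.284 and 0.479). Low counts beside Dhrs7 leave Gm4756 uninformative, with 0.209 ± 0.361 CPM in KI in LIF (n = 3) and 1.93 ± 0.490 CPM in WT in LIF (n = 2). Beside Sgpp1, Wdr89 had -0.08 and -0.13. Next to Vrtn, Abcd4 had 0.12 and -0.41 and Npc2 had -0.17 and -0.21. Esrrb, a naive pluripotency factor and the tested gene below Vash1, had 0.33 and 0.05.

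Across the 8 genes, 7 had the same sign of difference in LIF as in LIF/2i. The levels compared come from different libraries in LIF and LIF/2i, but both tests share 1 estimate of spread and are not independent. Same-numbered KI samples also deviated together across media (r = 0.500, 0.373 and 0.220), so the KI levels in the 2 media are not fully separate. Without overlap between KI and WT in LIF were 7 of 8 genes (31.8% of all tested genes). Groups separate more easily there than in LIF/2i, since WT in LIF has n = 2. In LIF/2i it was 8 of 8 (22.8% of all tested genes), which the choice by these same values favours, so nothing is read from it. At an unadjusted p under 0.05 in LIF were 6 of 8, against 10.7% of all tested genes. The LIF libraries entered the estimate of spread behind the choice, which favours genes with close LIF samples. These LIF counts are therefore not free of the choice either. The difference was smaller in LIF for 8 of 8 genes, which their choice by the LIF/2i values favours.

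**Figure D4:**
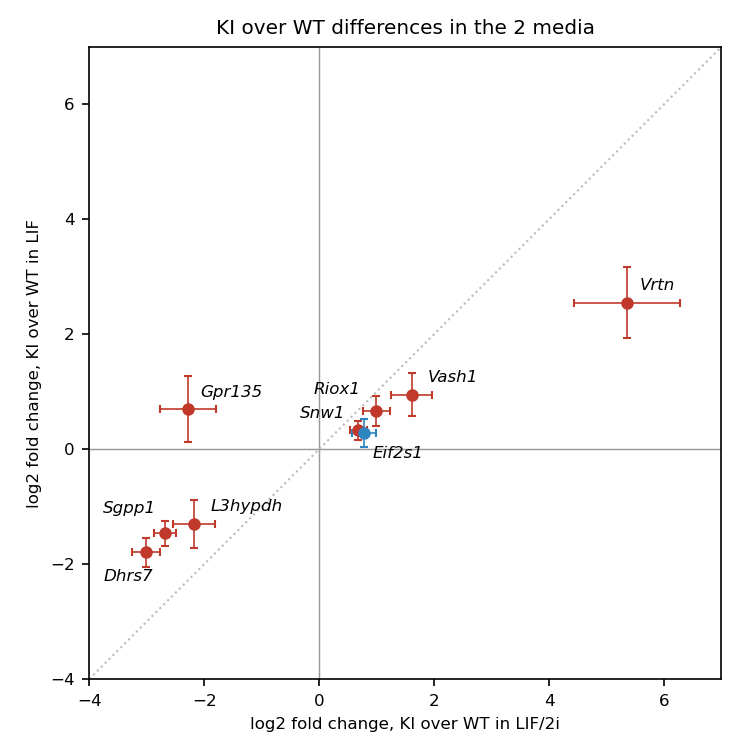
Log2 fold change of KI over WT in LIF/2i (horizontal) against LIF (vertical) for the 8 genes (red) and Eif2s1 (blue), with standard errors; the dotted line marks equal values. Dhrs7, Sgpp1 and L3hypdh are below 0 in both media, Vrtn, Vash1, Riox1 and Snw1 above 0 in both, and Gpr135 is below 0 in LIF/2i (-2.28) and above 0 in LIF (0.70).

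The difference between media of the KI over WT difference was tested by an interaction term. Among the 8 genes its adjusted p ran from 0.652 to 0.945 by edgeR, and 0 genes passed. At an unadjusted p under 0.05 were 4 of the 8, against 6.03% of all tested genes. Over all genes edgeR gave 0 calls, with 798 at an unadjusted p under 0.05, and DESeq2 gave 23, of which 0 were among the 8. The LIF/2i libraries that chose the genes also enter this test, so it is not independent of the choice. Sgpp1 (1.22 ± 0.29), Dhrs7 (1.22 ± 0.35), Gpr135 (2.98 ± 0.75) and Vrtn (-2.81 ± 1.21) had the largest terms against their SE on the log2 scale.

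The difference between media within each genotype is given as a description. In KI cells, the log2 difference of LIF over LIF/2i was 1.98 for Vrtn, 1.47 for Dhrs7, 1.20 for Gpr135, 0.72 for Vash1 and 0.33 for Riox1. It was 0.10 for L3hypdh, 0.02 for Sgpp1 and -0.03 for Snw1. In WT cells it was 4.80 for Vrtn, 1.38 for Vash1, 0.66 for Riox1, 0.32 for Snw1 and 0.24 for Dhrs7, and -0.77 for L3hypdh, -1.19 for Sgpp1 and -1.78 for Gpr135. LIF and LIF/2i libraries did not overlap for 2 of 8 genes in KI (27.2% of all tested genes) and 7 of 8 in WT (48.8% of all tested genes). These 2 counts are not alike, since groups separate more easily with the 2 WT samples in LIF than with 3 KI libraries. The LIF/2i levels that chose the genes also enter both. Sgpp1, for example, averaged 9.41 ± 0.962 CPM in LIF and 9.22 ± 1.90 CPM in LIF/2i in KI cells (SD, n = 3 each), and 26.1 ± 0.220 CPM in LIF (n = 2) and 59.7 ± 3.93 CPM in LIF/2i (n = 3) in WT cells.

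Other genes of the pathways these 8 belong to were read from lists of 45 genes, of which 36 were tested. edgeR called 0 of them in either medium, with 8 at an unadjusted p under 0.05 in LIF/2i and 6 in LIF. Over all tested genes 2.22% were called in LIF/2i and 0.144% in LIF. With shares this low, 0 calls in these lists or their parts say little about the pathways. At an unadjusted p under 0.05 in LIF were 10.7% of all tested genes, and the share in LIF/2i was not counted. DESeq2 called Dhrs1 in LIF/2i and S1pr1 in LIF, and limma-voom called 0 in both. In the sphingosine-1-phosphate group, 0 of 7 tested genes were called. Sphk2, a kinase that makes sphingosine-1-phosphate, had log2 fold changes of 0.17 in LIF/2i and 0.29 in LIF. Sgpl1, the lyase that degrades it irreversibly, had 0.10 and -0.05. Sgpp2, the second phosphatase, and Sphk1 were under the count filter.

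S1pr1, a receptor for this lipid, was the exception in size and was singled out after its values were seen. In LIF it had 1, 1 and 0 counts in KI libraries, against 20, 32 and 23 counts in WT libraries, and it missed the edgeR threshold (adjusted p = 0.0645). In LIF/2i it had 3.09 ± 1.62 CPM in KI and 7.26 ± 1.44 CPM in WT (SD, n = 3 each, edgeR adjusted p = 0.136). Without KI replicate 1 in both media, edgeR called S1pr1 in LIF (adjusted p = 0.0127).

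Among tubulin tyrosination genes 0 of 3 were called. Vash2, the paralog of Vash1, had 10.8 ± 4.83 CPM in KI and 4.74 ± 1.12 CPM in WT in LIF (SD, n = 3 and n = 2; log2 fold change 1.19, edgeR adjusted p = 0.394). Svbp, the partner of both, had -0.11 in LIF/2i and -0.24 in LIF, and Ttl, which adds the tyrosine back, had 0.38 and -0.06. Of the short-chain dehydrogenases 0 of 6 tested were called, of the ribosomal oxygenases and their substrates 0 of 3 and of Prp19-related spliceosome genes 0 of 17. Their median log2 fold changes in LIF/2i were -0.13, -0.17 and 0.09 in that order. Riox2, the other ribosomal oxygenase, had 0.21 in LIF/2i and -0.22 in LIF.

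Over the 11 samples, levels of Dhrs7, Sgpp1 and L3hypdh varied together, with Pearson's r of log2 CPM between 0.843 and 0.949. Gpr135 correlated with them at 0.619 to 0.692. Among the genes above Eif2s1, Vrtn and Vash1 had r = 0.945. Genes on opposite sides of Eif2s1 had negative r, from -0.904 (L3hypdh with Snw1) to -0.417 (Gpr135 with Vash1). Genotype and medium shape all these values, and they are a description without a test. The libraries that chose these genes for a genotype difference are among the samples. That choice favours positive r between genes that differ in the same direction and negative r between the others. Nothing is read from these values for that reason. By the same measure the tested gene most like each was Podxl for Dhrs7 (r = 0.934), Slc22a5 for Sgpp1 (0.960), Sgpp1 for L3hypdh (0.949), Epcam for Gpr135 (0.920), Champ1 for Vrtn (0.979), Pdzd4 for Vash1 (0.968), Gpatch2 for Snw1 (0.964) and Kif7 for Riox1 (0.974). Except for Sgpp1, these lie on other chromosomes.

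Some libraries stood apart. Totals ran from 2307219 to 9713857 counts and were lowest in KI in LIF. All 8 embryonic stem cell markers were present in every library, summing to 2644 to 3925 CPM. The 8 fibroblast markers summed to 7.31 to 16.2 CPM in KI in LIF/2i, 2.07 to 4.95 in WT in LIF/2i, 86.8 to 132 in KI in LIF and 21.9 to 399 in WT in LIF, where WT LIF replicate 2 held the 399. Col1a1 and Col1a2 carried most of that sum, while Lum was at 0 in 11 of 12 libraries, Fap in 10 and Dcn in 7. In WT LIF replicate 2 Dhrs7 and Sgpp1 stood at 33.7 and 25.9 CPM, close to 37.5 and 26.2 in the other WT sample.

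The summed level of the Y-linked genes Kdm5d, Uty, Eif2s3y and Ddx3y was 41.6, 1.86 and 1.43 CPM in KI in LIF/2i, against 261, 44.8 and 259 CPM in WT in LIF/2i, and 36.7, 2.17 and 3.90 CPM in KI in LIF, against 165, 77.6 and 156 CPM in WT in LIF. Within each medium every KI sum was under every WT sum. KI replicate 1 had the highest KI sum and WT replicate 2 the lowest WT sum in both media. KI replicate 1 was the KI library nearest the WT mean for 3 of the 8 genes in LIF/2i (Gpr135, Sgpp1 and Riox1) and for 5 in LIF (Dhrs7, Sgpp1, Riox1, Vrtn and Vash1). KI replicate 2 was nearest for 3 genes in LIF/2i and 2 in LIF, and KI replicate 3 for 2 and 1. The shares over all tested genes were not counted, so nothing is read from these counts. For Riox1, KI replicate 1 had 42.4 CPM in LIF/2i, against 65.3 CPM or more in the other KI libraries and up to 34.9 CPM in WT. For Snw1 in LIF it had 129.5 CPM, the KI value farthest from WT. Without KI replicate 1 in both media, edgeR called 3 of the 8 genes in LIF (Dhrs7, Sgpp1 and Vrtn), with 415 called over all genes. The part of Y-linked or fibroblast signal in the differences described here was not tested.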

How the data were processed

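Per the labels' protocols, cells were lysed with cycloheximide present, and total RNA from the cleared lysate was depleted of ribosomal RNA, fragmented and made into libraries in the way of ribosome profiling. The deposited values are raw counts per gene over the coding sequence of 1 transcript, per the file headers, for 12 libraries; 4483 of 22416 genes had no counts. Tools named in the submitters' processing notes are UMI-tools 1.0.1, cutadapt 3.4 and Bowtie 1.3.0, with no roles; the counting tool and build are not given in the sources used. Positions come from GENCODE M21 (GRCm38), in which 22155 transcripts were found by identifier and 21766 had the same symbol.

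Counts of the WT LIF libraries 1 and 3 agree within sampling noise (chi-square per degree of freedom 0.858 over 12373 genes) so they entered as 1 rounded mean, giving 11 samples. Whether replicates were separate cultures is not labelled, so p-values measure only the spread between these samples, possibly technical.

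A minimum count of 10 (filterByExpr) and TMM scaling preceded the quasi-likelihood fit in edgeR 4.0.16 (R 4.3.3; robust, 1 mean per group). Tests were two-sided with Benjamini-Hochberg adjustment over 13239 genes at 0.05, and standard errors came from the F statistic. The biological coefficient of variation estimated over genes was 0.234. Y-linked, stem cell and fibroblast sums use library totals. The code was tested on simulated data. Alternatives were DESeq2 1.42.0, limma 3.58.1 (voom), other scaling and filters, a replicate block and leaving libraries out. Named genes were the 8, Eif2s1, the nearest tested neighbour on each side, the closest pathway members and the gene most like each of the 8; genes just outside the threshold were added. The 8 genes, the lists and the rules were chosen with earlier results of these data known. Groups share replicate numbers: same-numbered KI samples deviated together across media (r = 0.500, 0.373 and 0.220), but KI and WT samples did not.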

Additional observations from a re-analysis of the deposited data

How the results depend on the processing

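No difference of the 8 genes or Eif2s1 changed direction under the alternatives run. Of the 8 genes, 2 were called in LIF by the main test, 1 by limma-voom, 1 with only the groups compared, 3 by DESeq2, 3 with 12 libraries separately, 3 without KI replicate 1 in both media and 0 without the agreeing WT pair (the last 2 chosen after seeing the data), and 0 to 2 when 1 library was left out. In LIF/2i, where passing chose them, 8 were called by the main test, 3 with only the groups compared, 6 by limma-voom and 2 to 8 when 1 library was left out. Over all genes in LIF, 19 were called by the main test, 206 by DESeq2, 11 by limma-voom, 32 without a filter, 31 with only the groups compared, 142 with 12 libraries separately, 1 to 22 leaving out 1 library, 2 without the agreeing WT pair and 415 without KI replicate 1 in both media. In LIF/2i, 294 were called by the main test (129 higher, 165 lower), 911 by DESeq2, 65 with only the groups compared, 522 with 12 libraries separately, 64 to 1001 leaving out 1 library and 1570 without KI replicate 1 in both media. The interaction had 0 calls by the main test, 23 by DESeq2, 1 with 12 libraries separately, 0 to 4 leaving out 1 library, and 1 each without the agreeing WT pair and without KI replicate 1. The replicate block, fitted over 12 libraries counted separately, called 174 genes in LIF, 566 in LIF/2i and 2 for the interaction, and 2 of the 8 genes in LIF. The correlations of same-numbered KI and WT samples were -0.0934 to 0.0683 in LIF/2i and -0.0225 to 0.0388 in LIF, so these numbers do not pair the genotypes. The causes of these shifts were not tested. The fitted log2 difference of Vrtn in LIF/2i ran from 4.63 to 7.35. Counts of 5 to 39 per KI library for Vrtn, L3hypdh and Gpr135 in LIF/2i limit their precision.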
